A study of Mus musculus with 18 samples.

Results

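The genes described here are 9 satellite glial genes of the mouse dorsal root ganglion: Etnppl, Gfap, Fabp7, Glul, Apoe, Sox10, S100b, Slc1a3 and Gja1. They were chosen by symbol, with earlier results of these data known, the difference of Etnppl between dorsal column injury and laminectomy among them. All 9 of 9 were found in the deposited count table of 15730 genes, and all 9 passed the filter on low counts, as did every gene of that table. The RNA came from the dorsal root ganglia, where sensory neurons have their cell bodies, that serve the sciatic nerve of C57BL/6 mice aged 6 to 8 weeks, and was taken 24 hours after surgery. The 18 samples fall into 6 groups with 3 samples per group, and ganglia of 2 mice were pooled for every sample. SNA_Saline mice had an injury of the sciatic nerve with saline present, and Sham_Saline mice had the sham procedure with saline. SNA_NAC mice had the nerve injury with N-acetyl-cysteine (30 mM), an antioxidant and cysteine source, and Sham_H2O2 mice (titled with a zero as Sham_H202) had the sham procedure with 13 mM hydrogen peroxide. DCA mice had a lesion of the dorsal columns, which hold the ascending spinal axons of these sensory neurons. LAM mice, their controls, had the laminectomy (opening of the vertebral bone) alone. No transgene or altered allele is named in the labels for any group.

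Satellite glial cells wrap the cell bodies of sensory neurons in the ganglion as a closed sheath. They take up glutamate and potassium from the narrow space around the neuron, are joined to each other by gap junctions, and share a neural crest origin and several markers with Schwann cells, the glia of the axon. In rodents, a rise of the filament protein GFAP in satellite glia is a widely used sign of their reaction to nerve injury. Of the 9 genes, Sox10 encodes a transcription factor of the glial lineage and S100b a calcium-binding protein, and both are also expressed in Schwann cells. Fabp7 encodes a fatty acid-binding protein and Apoe the lipid carrier apolipoprotein E, which macrophages make too. Slc1a3 encodes the glutamate transporter GLAST and Glul encodes glutamine synthetase. Gja1 encodes the gap junction protein connexin 43, and Etnppl encodes ethanolamine-phosphate phospho-lyase, an enzyme of lipid breakdown best known from astrocytes.

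RefSeq promoters (GRCm38.p6, the assembly of the submitters' mm10; 250 bases before to 50 after the start site) were matched for 8 of the 9 genes, and none was matched for Sox10. Those of Etnppl and Gfap are shown because these 2 genes varied most between samples, and that of Apoe because it alone held a match to a motif searched on both strands. The motifs were the SOX core letters ACAAAG and ACAATG and the glucocorticoid receptor palindrome, and no 2 of them overlap in these windows. The RefSeq start of Gfap lies inside the gene's span given below. Capitals mark the matches, and each sequence is the gene's own strand, 5′ to 3′.
Etnppl, chr3:130617198-130617497, plus strand: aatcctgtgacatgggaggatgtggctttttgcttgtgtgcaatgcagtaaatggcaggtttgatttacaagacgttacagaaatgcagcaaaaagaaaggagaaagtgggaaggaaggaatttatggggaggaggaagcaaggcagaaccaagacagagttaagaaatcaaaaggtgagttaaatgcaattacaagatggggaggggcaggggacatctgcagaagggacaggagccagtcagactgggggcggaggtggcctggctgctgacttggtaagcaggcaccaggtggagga
Gfap, chr11:102897151-102897450, minus strand: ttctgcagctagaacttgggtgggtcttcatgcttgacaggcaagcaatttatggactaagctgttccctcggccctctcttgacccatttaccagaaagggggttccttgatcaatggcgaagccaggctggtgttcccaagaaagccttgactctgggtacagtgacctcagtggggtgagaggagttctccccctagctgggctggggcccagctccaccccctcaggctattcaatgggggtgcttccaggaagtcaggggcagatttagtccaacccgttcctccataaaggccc
Apoe, chr7:19699139-19699438, minus strand: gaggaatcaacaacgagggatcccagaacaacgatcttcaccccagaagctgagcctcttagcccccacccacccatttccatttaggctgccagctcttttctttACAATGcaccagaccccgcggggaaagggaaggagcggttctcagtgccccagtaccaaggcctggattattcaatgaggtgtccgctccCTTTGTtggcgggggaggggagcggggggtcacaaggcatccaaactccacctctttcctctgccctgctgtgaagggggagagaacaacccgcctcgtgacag

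The Apoe window held 1 ACAATG, 144 bases before the start site, and 1 ACAAAG, read on the opposite strand as the capitals show, 54 bases before it. None of the 3 motifs was found in the windows of the other 7 matched genes, nor in the further start sites listed for Etnppl and Apoe. Among all 32851 RefSeq promoter windows of 300 bases, 18.7% held ACAAAG, 12.6% held ACAATG and 0.0487% held the palindrome. A match or its absence describes letters in these windows only.

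Deposited counts summed to between 6472476 and 42435331 per sample, and the smallest library belonged to Sham_H2O2. The libraries differed in how their levels depended on the GC share of the genes. The slope of log2 CPM (counts scaled to a fixed library size) on the GC share of a gene's longest transcript ran from -0.22 in Sham_H2O2 replicate 3 to 0.43 in Sham_Saline replicate 2, in log2 CPM per standard deviation (SD) of GC share. The Sham_Saline samples stood at -0.04, 0.43 and 0.16, so the group that serves as control for 3 comparisons held the widest spread. Markers of sensory neurons (12 of 12 in the table) summed to 18533 to 27256 CPM and those of myelinating Schwann cells (9 of 9) to 7053 to 11272 CPM. Of 10 markers of central glia 6 were in the table, and these 6 summed to 71.8 to 87.7 CPM. The myelin and oligodendrocyte genes Mog, Opalin, Olig1 and Olig2 were not among the genes counted there. The lowest mean count of a gene in the table was 10.06, so absence from it does not show that a gene had no reads. All replicate pairs differed by more than counting noise (the lowest chi-square per degree of freedom was 3.96).

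Levels per transcript length are given as the authors' FPKM (fragments normalized to transcript length and library size), as means over the 18 samples. S100b was highest at 701 ± 62.5 FPKM (SD, n = 18), followed by Apoe at 452 ± 166, Fabp7 at 335 ± 92.0 and Glul at 133 ± 15.9. Gja1 at 12.7 ± 2.16 and Sox10 at 12.6 ± 3.53 did not differ beyond their spread, nor did Etnppl at 0.739 ± 0.736 and Gfap at 0.719 ± 0.344, and Slc1a3 stood between these pairs at 1.95 ± 0.311 FPKM. Apoe and Fabp7, neighbours in this order, also overlapped in their spread. Etnppl and Gfap therefore rest on few reads: their counts per sample ran from 6 to 268 and from 6 to 217, against 2397 to 19728 for Glul. Between the highest and the lowest sample the CPM value differed 12.7-fold for Etnppl and 7.18-fold for Gfap, but 1.55-fold for Glul and 1.32-fold for S100b.

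**Figure D1:**
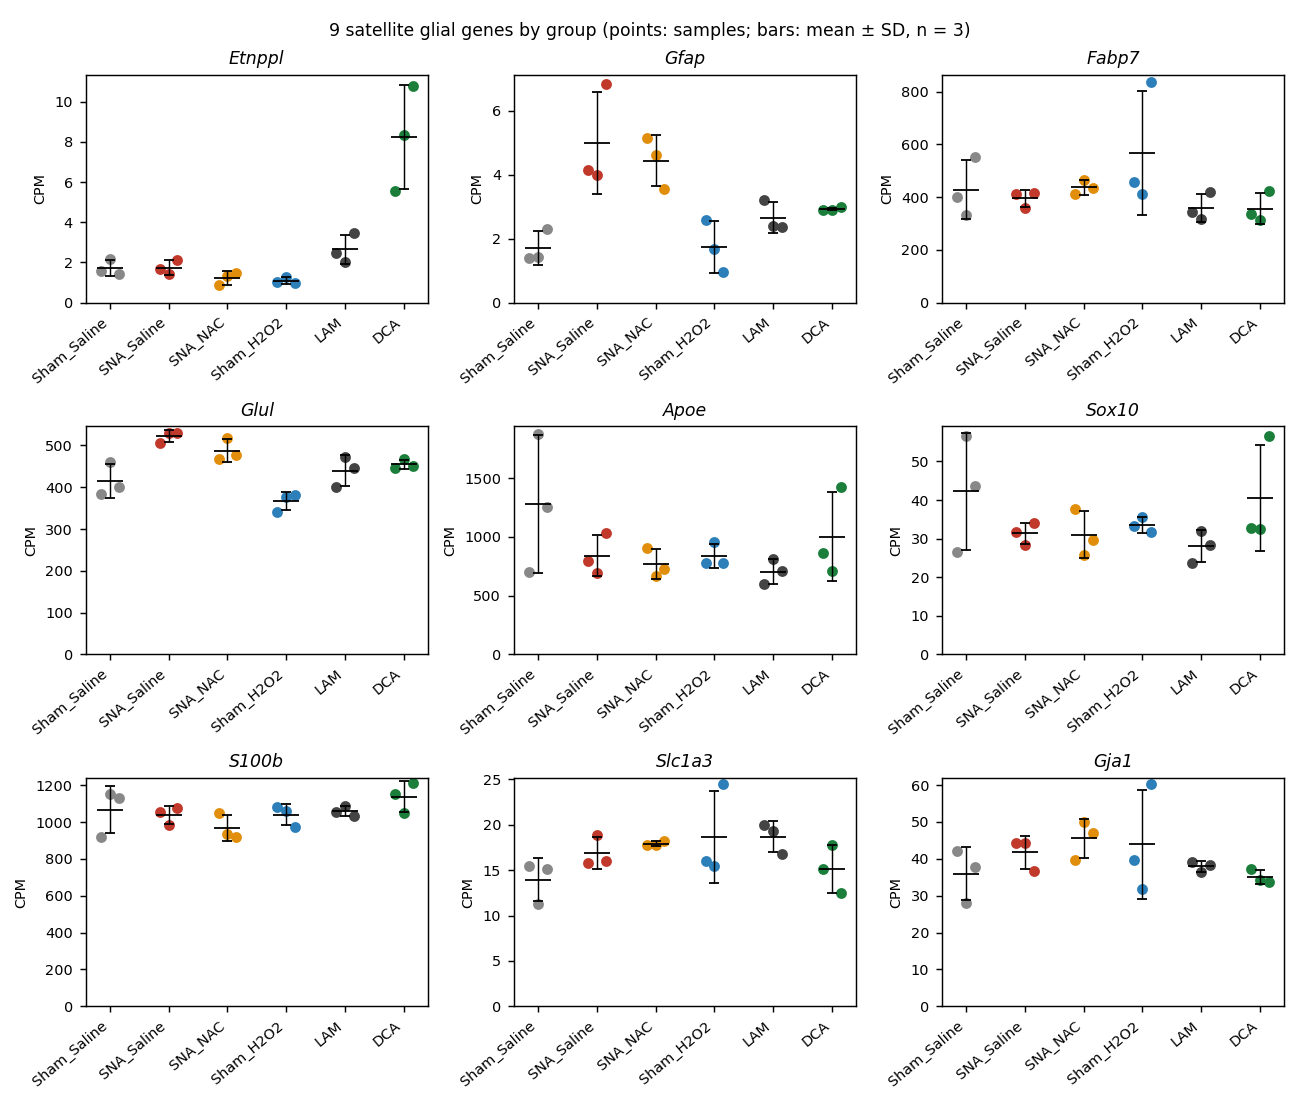
Level of each of the 9 genes (vertical axes, CPM after TMM normalization, each starting at 0) in the 6 groups (horizontal axes); points are samples, and bars show the mean and SD of 3 samples. Gfap was higher in every sample of SNA_Saline and SNA_NAC than in any Sham_Saline sample, and Etnppl was higher in the 3 DCA samples, from 5.58 to 10.8 CPM, than in the other 15.

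The first question was what the nerve injury did to these genes. In SNA_Saline against Sham_Saline, Gfap (ENSMUSG00000020932; GRCm38 chromosome 11, 102887336 to 102900912, minus strand) was the only one of the 9 that passed the test. It rose, and it also rose in SNA_NAC against Sham_Saline. Among all genes 2.73% passed in the first comparison (2.16% as higher) and 3.32% in the second (2.47% as higher), and a single gene of 9 says nothing about the 9 as a group. Both comparisons use the same 3 Sham_Saline samples. The medians of the log2 fold changes over the 9 genes were 0.00168 and 0.0300, beside -0.0313 and -0.0142 over all genes. The counts moved when single libraries were left out. Without Sham_Saline replicate 1, 3 of the 9 genes (Gfap, Apoe and Sox10) and 2548 and 5861 of all genes passed, in place of 430 and 522. Without Sham_Saline replicate 2 it was 2 and 0 of the 9 and 233 and 215 of all genes. In SNA_Saline 174 and 207 of all genes passed without its replicate 1 or 2. In SNA_NAC it was 325, 217 and 221 without its replicate 1, 2 or 3, and 311 without Sham_Saline replicate 3. As each sample pools whole ganglia, fewer cells of a type and less RNA per cell cannot be told apart in any value given here.

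Gfap stood at 1.38, 1.43 and 2.31 CPM in Sham_Saline, at 4.16, 3.999 and 6.84 CPM in SNA_Saline and at 5.14, 4.63 and 3.57 CPM in SNA_NAC. No sample of either injured group overlapped with the sham group. In Sham_H2O2 it was at 2.59, 1.68 and 0.953 CPM, and there the values overlapped with Sham_Saline. The mean went from 1.71 ± 0.520 to 4.9997 ± 1.60 CPM (SD, n = 3 each) with the nerve injury. Its log2 fold change was 1.58, with a standard error (SE) of 0.29 (edgeR quasi-likelihood test, adjusted p = 0.00497). With N-acetyl-cysteine it was 4.45 ± 0.804 CPM, a log2 fold change of 1.41 with an SE of 0.28 against Sham_Saline (edgeR adjusted p = 0.00911). The call held in 15 of 16 and in 14 of 16 alternative analyses, which do not include the filter of at least 10 counts in every sample, since that removes Gfap. They do include an adjusted p under 0.10 on the same fit, and a fit with no filter. Neither can lose a call, since the main filter removed no gene. It was lost when only the 6 samples of a comparison were fitted (edgeR adjusted p = 0.15 and 0.0986), and in SNA_NAC also without Sham_Saline replicate 2 (1.30; edgeR adjusted p = 0.0565). SNA_NAC against SNA_Saline gave a log2 fold change of -0.17 with an SE of 0.26 (edgeR adjusted p = 1).

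After the spinal operations Gfap was at 3.21, 2.39 and 2.35 CPM in LAM and at 2.90, 2.90 and 2.98 CPM in DCA. All 3 DCA values lay inside the range of LAM. Both groups lay between the sham and the injured nerve groups on average, and every LAM sample lay above every Sham_Saline sample, if narrowly. Sham_Saline against LAM gave a log2 fold change of -0.63 with an SE of 0.29 (edgeR adjusted p = 0.161). The response to nerve injury minus that to dorsal column injury was 1.41 log2 units with an SE of 0.40 (edgeR adjusted p = 0.0733), so a difference between the 2 injuries did not pass for Gfap. It passed with DESeq2 (adjusted p = 0.0193), with the GC and length offsets (1.80; edgeR adjusted p = 0.0114) and without Sham_Saline replicate 1 (1.28; edgeR adjusted p = 0.0356).

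S100b, the calcium-binding protein, was the steadiest of the 9. Its group means ran from 970 ± 71.5 CPM in SNA_NAC to 1138 ± 84.2 CPM in DCA (SD, n = 3 each). In SNA_Saline against Sham_Saline its log2 fold change was -0.04 with an SE of 0.10 (edgeR adjusted p = 0.831).

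The enzyme and the transporter of glutamate among the 9 did not pass in either nerve injury comparison in the edgeR fit of all 18 samples without a replicate block. Glul (ENSMUSG00000026473; chromosome 1, 153899944 to 153909723, plus strand) was at 383, 461 and 401 CPM in Sham_Saline and at 507, 530 and 530 CPM in SNA_Saline. In SNA_NAC it was at 468, 518 and 478 CPM, and in Sham_H2O2 at 342, 377 and 381 CPM. Every sample of the 2 injured groups lay above, and every hydrogen peroxide sample below, the range of Sham_Saline. The log2 fold change in SNA_Saline was 0.33 with an SE of 0.09 (edgeR adjusted p = 0.0676), higher in 3 of 3 samples. With the replicate number, which the labels give as the sequencing lane, as a block, it was 0.34 and passed (edgeR adjusted p = 0.045); DESeq2 called it too (adjusted p = 0.0194), and it passed without Sham_Saline replicate 2 (0.41; edgeR adjusted p = 0.0475). It was 0.23 in SNA_NAC (SE 0.09, edgeR adjusted p = 0.136) and -0.18 in Sham_H2O2 (SE 0.09, edgeR adjusted p = 0.449). Exons of Glul overlap those of Mir8114 on the same strand and of Teddm2 on the other, and how the authors counted shared bases is not given in the sources used here.

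Slc1a3 (ENSMUSG00000005360; chromosome 15, 8634124 to 8710764, minus strand) was at 15.5, 11.2 and 15.1 CPM in Sham_Saline, at 15.8, 18.9 and 16.0 CPM in SNA_Saline and at 17.7, 17.8 and 18.2 CPM in SNA_NAC. The injured samples were all higher than the sham samples, though the nearest ones lay close together. The log2 fold changes were 0.28 with an SE of 0.18 (edgeR adjusted p = 0.344) and 0.36 with an SE of 0.18 (edgeR adjusted p = 0.189), and with offsets that remove each library's trend with GC share and length they were 0.13 and 0.17. Slc1a3 was also lower in all 3 Sham_Saline samples than in LAM, where it was at 19.98, 19.3 and 16.8 CPM (edgeR adjusted p = 0.134). In both nerve injury comparisons 3 of the 9 genes, Gfap, Glul and Slc1a3, had groups that did not overlap, all of them higher; over all genes this held for 19.1% and 21.2%, 10.3% and 11.5% as higher.

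Of 13 further genes of glutamate and glutamine handling in the table, 1 passed in each nerve injury comparison. Over all genes 2.73% and 3.32% passed. Asns, asparagine synthetase, rose in SNA_Saline from 205 ± 9.14 to 268 ± 11.8 CPM (SD over 3 samples; edgeR adjusted p = 0.0212). Slc38a1, a glutamine transporter of neurons, rose in SNA_NAC from 59.2 ± 16.6 to 101 ± 3.47 CPM (SD over 3 samples; edgeR adjusted p = 0.0215). Each was also higher than in Sham_Saline on average in the other injured group, without passing. Asns was at 255 ± 9.37 CPM in SNA_NAC and Slc38a1 at 84.9 ± 7.29 CPM in SNA_Saline (SD over 3 samples). Neither passed in SNA_NAC against SNA_Saline, so a call in 1 comparison only is no difference between the injured groups. The medians of this list were 0.139 and 0.116 log2 units, beside -0.0313 and -0.0142 over all genes. When only the groups of the comparison were fitted neither passed. Asns was also lost without Sham_Saline replicate 2 or SNA_Saline replicate 1 or 2 (edgeR adjusted p = 0.0952, 0.112 and 0.118), and Slc38a1 without Sham_Saline replicate 2 or 3 (edgeR adjusted p = 0.12 and 0.0921) or any one SNA_NAC sample (0.0528, 0.0955 and 0.0749).

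The lipid carriers were measured with more spread. Apoe (ENSMUSG00000002985; chromosome 7, 19696109 to 19699188, minus strand) was at 703, 1876 and 1256 CPM in Sham_Saline, at 795, 696 and 1031 CPM in SNA_Saline and at 909, 663 and 724 CPM in SNA_NAC. One sham sample lay within the range of the injured samples, and the other two lay above all of them. Against Sham_Saline the log2 fold changes were -0.61 with an SE of 0.29 (edgeR adjusted p = 0.229) and -0.74 with an SE of 0.29 (edgeR adjusted p = 0.136). Without Sham_Saline replicate 1, the low one, they were -0.90 and -1.03 and passed (edgeR adjusted p = 0.0364 and 0.00919). Without Sham_Saline replicate 2, the high one, they were -0.22 and -0.36 (edgeR adjusted p = 0.779 and 0.683). With the GC and length offsets they shrank to -0.12 and -0.11.

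Fabp7 (ENSMUSG00000019874; chromosome 10, 57784881 to 57788450, plus strand) had group means of 428 ± 112 CPM in Sham_Saline, 395 ± 33.2 in SNA_Saline and 436 ± 26.7 in SNA_NAC (SD, n = 3 each). Its log2 fold changes were -0.11 and 0.03, each with an SE of 0.23 (edgeR adjusted p = 0.778 and 0.942). With the offsets it was -0.14 in SNA_NAC and -0.37 in SNA_Saline (edgeR adjusted p = 0.19), and with the replicate block added to them this passed (edgeR adjusted p = 0.026). The highest value of the series was 838 CPM in Sham_H2O2 replicate 3, beside 457 and 410 CPM in the other two samples of that group.

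Of 17 further genes of lipoprotein and cholesterol handling, 1 passed as higher and 1 as lower in each nerve injury comparison, and they were the same genes. Abca1, which exports cholesterol to lipid-poor apolipoproteins, rose from 60.5 ± 22.5 CPM in Sham_Saline to 114 ± 17.7 CPM in SNA_Saline (edgeR adjusted p = 0.0357) and 135 ± 20.3 CPM in SNA_NAC (SD over 3 samples; edgeR adjusted p = 0.00721). Abcg1, which exports sterols to lipoprotein particles, fell from 31.6 ± 4.21 CPM to 21.4 ± 2.71 CPM (edgeR adjusted p = 0.0169) and 21.7 ± 2.13 CPM (SD over 3 samples; edgeR adjusted p = 0.0185). With the GC and length offsets both passed in both comparisons. When only the groups of a comparison were fitted neither passed. In SNA_Saline both were lost without Sham_Saline replicate 2 (edgeR adjusted p = 0.174 and 0.0972) and without SNA_Saline replicate 1 (0.172 and 0.119) or 2 (0.147 and 0.102), and Abca1 also without Sham_Saline replicate 3 (0.0999). In SNA_NAC Abca1 held without any one sample, while Abcg1 was lost without Sham_Saline replicate 2 or SNA_NAC replicate 2 or 3 (edgeR adjusted p = 0.121, 0.125 and 0.0725). The medians of the list were -0.0309 and -0.160 log2 units, beside -0.0313 and -0.0142 over all genes, of which 2.73% and 3.32% passed.

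Sox10 (ENSMUSG00000033006; chromosome 15, 79154908 to 79165240, minus strand) followed Apoe from sample to sample. It was at 26.5, 56.6 and 43.7 CPM in Sham_Saline, at 31.7, 28.4 and 33.9 CPM in SNA_Saline and at 37.7, 25.8 and 29.6 CPM in SNA_NAC. Sham_Saline again overlapped with the injured samples, with replicate 1 low and replicate 2 high. For Sox10 the log2 fold changes were -0.43 with an SE of 0.25 (edgeR adjusted p = 0.292) and -0.44 with an SE of 0.24 (edgeR adjusted p = 0.234). They passed without Sham_Saline replicate 1 (-0.68 and -0.69; edgeR adjusted p = 0.0481 and 0.0239), and without Sham_Saline replicate 2 they were -0.16 and -0.17 (edgeR adjusted p = 0.825 and 0.817). With the GC and length offsets they took the opposite sign, 0.13 and 0.16.

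Gja1 (ENSMUSG00000050953; chromosome 10, 56377330 to 56402513, plus strand) had group means between 35.0 ± 1.91 CPM in DCA and 45.5 ± 5.32 CPM in SNA_NAC (SD, n = 3 each). Its log2 fold changes were 0.21 in SNA_Saline and 0.34 in SNA_NAC, each with an SE of 0.19 (edgeR adjusted p = 0.485 and 0.236). With the offsets these were -0.03 and 0.07. Of 11 further genes of gap junctions and pannexin channels in the table, 0 passed in edgeR in any of the 7 comparisons. The smallest p in SNA_Saline belonged to Panx1, a pannexin channel, with a log2 fold change of 0.29 (unadjusted p = 0.00615; edgeR adjusted p = 0.107).

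**Figure D2:**
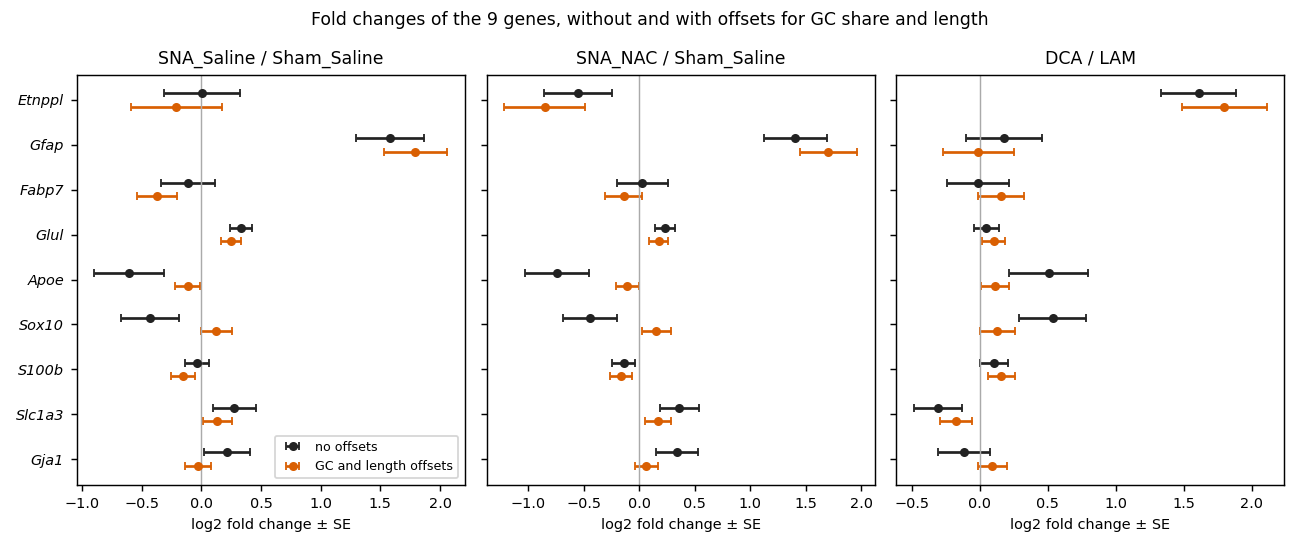
Log2 fold changes (horizontal axes) of the 9 genes with bars of 1 SE, in SNA_Saline and SNA_NAC against Sham_Saline and in DCA against LAM, from all 18 samples; black points are without and orange points with the GC and length offsets. Gfap stayed well above 0 in both nerve injury panels and Etnppl in the DCA panel, while Sox10 went from -0.43 to 0.13 in SNA_Saline.

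Of 20 other glial genes, 1 rose in each nerve injury comparison and 0 fell. In SNA_Saline this was Sox9, a transcription factor of glial precursors, from 1.85 ± 0.245 to 3.57 ± 0.796 CPM (SD over 3 samples; edgeR adjusted p = 0.0338). In SNA_NAC it was Atp1b2, a sodium pump subunit of glia, from 74.1 ± 4.51 to 107 ± 11.9 CPM (SD over 3 samples; edgeR adjusted p = 0.017). Each was also higher than in Sham_Saline on average in the other injured group, without passing. Sox9 was at 2.61 ± 0.354 CPM in SNA_NAC and Atp1b2 at 91.5 ± 12.2 CPM in SNA_Saline (SD over 3 samples). Neither passed in SNA_NAC against SNA_Saline. The medians of the list were 0.135 and 0.284 log2 units, beside -0.0313 and -0.0142 over all genes, of which 2.16% and 2.47% passed as higher. Sox9 kept its call in 11 of 17 alternatives and lost it with the replicate block (edgeR adjusted p = 0.0665), without Sham_Saline replicate 2 or 3 (0.0736 and 0.0571), without SNA_Saline replicate 1 or 2 (0.247 and 0.0584) and with only the groups of the comparison (0.273). Atp1b2 kept it in 13 of 17, losing it without Sham_Saline replicate 2 (edgeR adjusted p = 0.0993), without SNA_NAC replicate 1 or 2 (0.081 and 0.0692) and with only the groups of the comparison (0.194). Both tallies include the threshold of 0.10 and the fit with no filter, where no call can be lost.

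Markers of the other cells a ganglion can hold were read beside these values. None of the 12 sensory neuron, 9 myelinating Schwann cell, 6 central glial, 6 endothelial, 6 fibroblast, 7 skeletal muscle or 5 red blood cell markers in the table passed in either nerve injury comparison. Of the 12 sensory neuron markers, 3 were higher in SNA_Saline and 1 in SNA_NAC than in Sham_Saline. Their median log2 fold changes were -0.309 and -0.175, beside -0.0313 and -0.0142 over all genes. These markers summed to 20563 to 27256 CPM in Sham_Saline, 20177 to 20950 in SNA_Saline and 19855 to 21696 in SNA_NAC, so the groups overlapped. The highest sum was that of Sham_Saline replicate 2, the library with the GC slope of 0.43. Medians of this list were not recomputed with a sample left out or with the offsets. The macrophage list had 1 of 8, Mrc1, a mannose receptor, which rose in SNA_NAC from 14.2 ± 2.92 to 23.6 ± 3.01 CPM (SD over 3 samples; edgeR adjusted p = 0.047; 0.081 with the replicate block). In SNA_Saline Mrc1 was at 22.6 ± 3.64 CPM (edgeR adjusted p = 0.0787). Its call in SNA_NAC held in 7 of 17 alternatives. These include the threshold of 0.10 and the fit with no filter, where no call can be lost. It was lost without Sham_Saline replicate 2 or 3 (edgeR adjusted p = 0.242 and 0.122) or any one SNA_NAC sample (0.0517, 0.186 and 0.173). Upper-quartile factors and only the groups compared also lost it (edgeR adjusted p = 0.0518 and 0.206), as did limma (adjusted p = 0.0597 and 0.0648). The macrophage markers summed to 68.0 to 79.4 CPM in Sham_Saline, 78.4 to 79.0 in SNA_Saline and 68.5 to 80.2 in SNA_NAC. Schwann cell markers summed to 7053 to 11272 CPM in Sham_Saline, 8709 to 9504 in SNA_Saline and 8294 to 8365 in SNA_NAC. Muscle markers ran from 7.74 to 1300 CPM within Sham_Saline and from 31.9 to 311 CPM in SNA_Saline, and 7 of 7 were lower on average there. Red blood cell markers summed to 245 to 840 CPM in Sham_Saline, 278 to 708 in SNA_Saline and 204 to 293 in SNA_NAC, and 5 of 5 were lower on average in each injured group. The part of these cells in the values of the 9 genes was not tested.

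The next comparisons asked what each reagent did. In SNA_NAC against SNA_Saline, 0 of the 9 genes and 0% of all genes passed in edgeR; 314 genes had an unadjusted p under 0.05, and DESeq2 called 0. None of the 9 had groups that did not overlap, against 14.9% of all genes. The log2 fold changes ran from -0.56 for Etnppl (SE 0.32) to 0.14 for Fabp7 (SE 0.23), with a median of -0.0983.

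In Sham_H2O2 against Sham_Saline, again 0 of the 9 and 0% of all genes passed in edgeR, with 1440 genes at an unadjusted p under 0.05 and 4 called by DESeq2. Glul and Etnppl were lower in all 3 hydrogen peroxide samples than in any Sham_Saline sample; over all genes 5.43% of groups did not overlap, 3.27% as lower. Etnppl was at 1.03, 1.27 and 0.953 CPM, beside 1.57, 2.19 and 1.43 CPM in Sham_Saline. Its log2 fold change was -0.63 with an SE of 0.35 (edgeR adjusted p = 0.449). Fabp7, Slc1a3 and Gja1 had their highest values of the series in Sham_H2O2 replicate 3, the smallest library and the one with the lowest GC slope: 838, 24.5 and 60.2 CPM. Without it their log2 fold changes were 0.02, 0.18 and -0.01, against 0.41, 0.41 and 0.27 with it.

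Dorsal column injury was compared with laminectomy as a description, since the difference of Etnppl here was known when the genes were listed. Etnppl (ENSMUSG00000019232; chromosome 3, 130617448 to 130637521, plus strand) was at 2.48, 2.01 and 3.46 CPM in LAM and at 5.58, 8.37 and 10.8 CPM in DCA. The 3 DCA samples were higher than every other sample of the series. The group means of 2.65 ± 0.740 and 8.25 ± 2.61 CPM (SD, n = 3 each) correspond to a log2 fold change of 1.61 with an SE of 0.28. It ran from 0.90, on log2(FPKM + 1), to 1.89, without LAM replicate 3, over 16 alternatives. Over all genes 0% passed in this comparison in edgeR, with 793 at an unadjusted p under 0.05 and 2 called by DESeq2.

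In the other groups Etnppl was lower. It was at 1.65, 1.41 and 2.14 CPM in SNA_Saline and at 0.853, 1.31 and 1.49 CPM in SNA_NAC, within or below the range of Sham_Saline. Its log2 fold changes against Sham_Saline were 0.00 with an SE of 0.32 (edgeR adjusted p = 0.999) and -0.55 with an SE of 0.31 (edgeR adjusted p = 0.237). The group means in order were 8.25 CPM in DCA, 2.65 in LAM, 1.73 in SNA_Saline and in Sham_Saline, 1.22 in SNA_NAC and 1.09 in Sham_H2O2, and neighbours below DCA overlapped in their samples. The response to nerve injury minus that to dorsal column injury was -1.61 log2 units with an SE of 0.42.

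Of the other 8 genes, Sox10 also had no overlap between DCA (32.6, 32.5 and 56.5 CPM) and LAM (23.7, 32.0 and 28.3 CPM). The nearest samples lay close together, and DCA replicate 3, the highest, also had the highest GC slope of its group, 0.25. Schwann cell markers summed to 7645 to 10813 CPM in DCA and to 7426 to 8439 CPM in LAM. Fibroblast markers summed to 915 to 1031 CPM in DCA and to 1060 to 1231 CPM in LAM, without overlap, and 0 of 6 were higher in DCA on average. Of the red blood cell markers 5 of 5 were higher, with sums of 351 to 723 CPM in DCA and 164 to 437 CPM in LAM. The part of these cells was not tested. The log2 fold change of Sox10 was 0.53 with an SE of 0.25, 0.21 without DCA replicate 3, and 0.13 with the GC and length offsets. Apoe was at 864, 709 and 1429 CPM in DCA and at 595, 813 and 706 CPM in LAM, a log2 fold change of 0.51 with an SE of 0.29, 0.16 without DCA replicate 3, and 0.11 with the offsets. Fabp7, Glul, Gfap, S100b and Gja1 lay between -0.12 and 0.18, and Slc1a3 was at -0.31 with an SE of 0.18. Over all genes 21.7% had groups that did not overlap, 11.9% as higher. The median over the 9 genes was 0.104 and over all genes -0.00379 log2 units.

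Of 10 further genes listed under ethanolamine phospholipid metabolism in the table, 0 passed in DCA against LAM in edgeR. Pcyt2, which makes activated ethanolamine, had the smallest p (log2 fold change 0.59, edgeR unadjusted p = 0.0544). It was at 51.8, 41.4 and 82.1 CPM in DCA and at 37.5, 40.0 and 39.5 CPM in LAM. The highest of these was DCA replicate 3, with the GC slope of 0.25. In Sham_Saline replicate 2, with the slope of 0.43, Pcyt2 was at 114 CPM. In SNA_Saline 1 of the 10 rose, Phykpl, the closest relative of Etnppl and an enzyme of hydroxylysine breakdown, from 92.7 ± 5.91 to 124 ± 9.04 CPM (SD over 3 samples; edgeR adjusted p = 0.0293; 0.0591 with the replicate block). It was lost without Sham_Saline replicate 2 or SNA_Saline replicate 1 or 2 (edgeR adjusted p = 0.122, 0.158 and 0.148). Its pathway is hydroxylysine breakdown, so this call is not one of an enzyme of ethanolamine metabolism. In SNA_NAC Phykpl was at 118 ± 9.49 CPM (edgeR adjusted p = 0.0671). Its values were 118, 109 and 110 CPM in LAM and 109, 97.7 and 91.8 CPM in DCA. The list median was 0.0732 in SNA_Saline and -0.0152 in DCA, beside -0.0313 and -0.00379 over all genes. Of all genes 2.73% passed in SNA_Saline.

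Of 18 genes that respond to glucocorticoids, 0 passed in DCA against LAM in edgeR, and 13 were higher, with a median of 0.262 log2 units. Plin4, a coat protein of lipid droplets, was at 4.94, 8.45 and 10.5 CPM in DCA and at 2.48, 2.82 and 2.92 CPM in LAM. The groups did not overlap, and the log2 fold change was 1.52 with an SE of 0.41 (edgeR adjusted p = 0.624). In Sham_H2O2 against Sham_Saline 2 of the 18 were higher and the median was -0.710, with Per1, a clock gene, at -1.22 and Fkbp5, a co-chaperone of steroid receptors, at -0.83 (edgeR adjusted p = 0.449 each). In SNA_Saline Dusp1, a phosphatase of MAP kinases, and Cdkn1a, an inhibitor of the cell cycle, rose (edgeR adjusted p = 0.0019 and 0.00831). Both also rose in SNA_NAC (edgeR adjusted p = 0.0408 and 0.026; Dusp1 0.0628 with the replicate block), where Lcn2, a secreted iron-binding protein, fell (edgeR adjusted p = 0.0456). These 3 calls in SNA_NAC were each lost without any one SNA_NAC sample, with adjusted p from 0.0733 to 0.224, and the calls in SNA_Saline held without any one sample but not with only the groups compared in the fit (edgeR adjusted p = 0.206 and 0.273). Lcn2 was at 23.8 ± 6.74 CPM in Sham_Saline, 17.6 ± 6.90 in SNA_Saline, where it did not pass, and 10.8 ± 2.21 in SNA_NAC (SD over 3 samples). The list medians in SNA_Saline and SNA_NAC were -0.165 and -0.301, beside -0.0313 and -0.0142 over all genes, of which 2.73% and 3.32% passed. In DCA against LAM the median over all genes was -0.00379, and in Sham_H2O2 against Sham_Saline it was -0.0196.

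The genes whose log2 CPM was most like that of Etnppl over the 18 samples, among 12982 genes with a mean count of at least 50, were Plin4, Dpep1, Txnip, Cyp2d22 and Pik3ip1, with Pearson correlations of 0.85, 0.83, 0.82, 0.81 and 0.81. The 18 samples share 6 groups and 3 lanes, so these values are a description. Dpep1, a dipeptidase, was at 6.11, 6.92 and 9.79 CPM in DCA and at 3.42, 4.45 and 4.03 CPM in LAM. Txnip, a thioredoxin-binding protein, was at 116, 117 and 140 CPM in DCA and at 92.1, 111 and 103 CPM in LAM. Being picked for their likeness to Etnppl, these genes give no separate evidence on DCA against LAM.

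**Figure D3:**
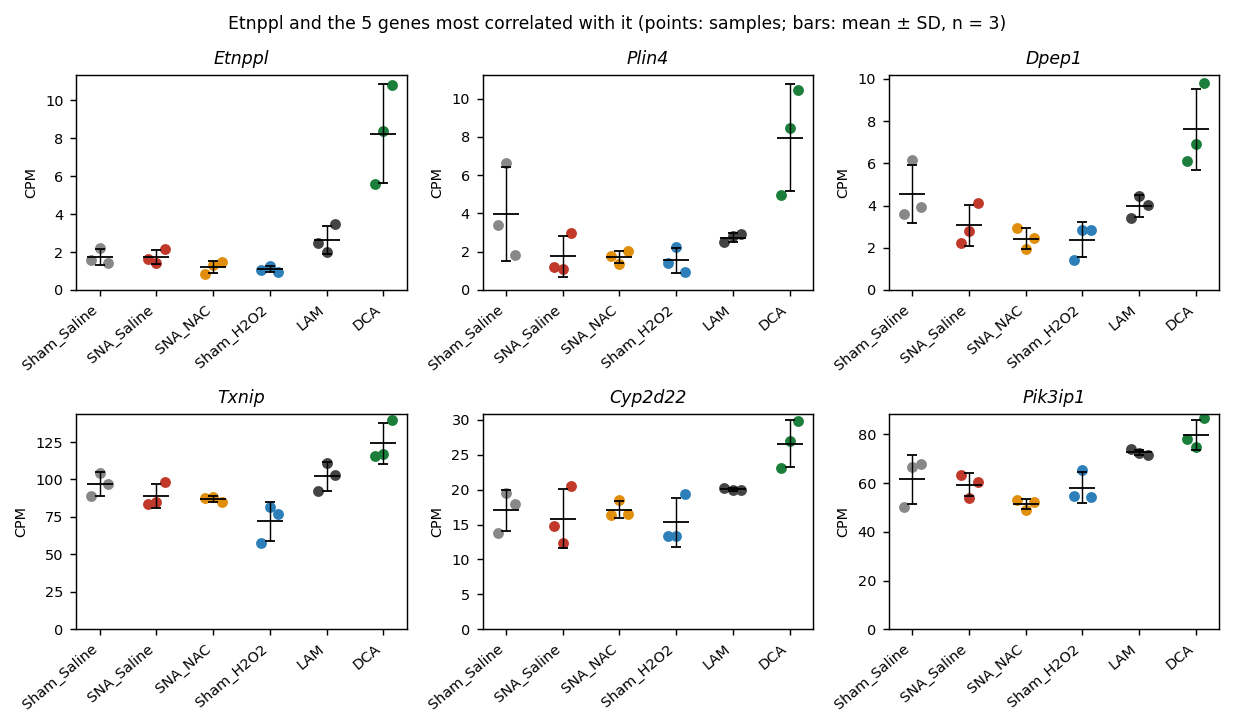
Level (vertical axes, CPM starting at 0) of Etnppl and of the 5 genes with the highest correlation with it, in the 6 groups; points are samples, and bars show the mean and SD of 3 samples. The 3 DCA samples lie above the 3 LAM samples in each panel, a pattern that picking by correlation with Etnppl favours; for Plin4 and Dpep1 one Sham_Saline sample, at 6.65 and 6.15 CPM, lies among the DCA samples.

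For Gfap the most similar genes were Nek6, Mchr1 and Sfxn3 (0.85, 0.82 and 0.81), and for Glul they were Fam161a, Snhg5 and Pold3 (0.87, 0.82 and 0.80). For Fabp7 they were Lpar1, Mmd2 and Dtx4 (0.82, 0.81 and 0.79). Apoe was matched far more closely, by Cryab and Rplp0 (each 0.98), a small heat shock protein and a ribosomal protein. Sox10 was matched by Prx, Nt5c3b and Bcan (0.96, 0.96 and 0.95), and Prx, periaxin, is a myelin gene of Schwann cells. S100b was matched by Iscu, Atp6v0e2 and Slc25a11 (0.95, 0.95 and 0.94), Slc1a3 by Snx12, Brwd1 and Jam2 (0.93, 0.92 and 0.92), and Gja1 by Zfp52, Tmem123 and Samd9l (0.95, 0.95 and 0.93). All these matches were made without the GC and length offsets and were not recomputed with them. Apoe, Sox10, S100b, Slc1a3 and Gja1, the genes with the closest matches, moved with the GC slope of the library, as given below. The part of that slope in the matches was not tested.

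The level of 5 of the 9 genes moved with the GC slope of the library, while the others correlated with it by 0.25 or less in either direction. The slope was fitted over all genes with a GC value in the same libraries, these genes among them. How many of all genes move with it as closely was not computed, so 5 of 9 cannot be read as particular to these genes. Over the 18 samples the correlation of log2 CPM with that slope was 0.95 for Apoe, 0.89 for Sox10 and 0.71 for S100b, and -0.89 for Slc1a3 and -0.78 for Gja1. For Etnppl it was 0.25, and for Gfap, Fabp7 and Glul it was -0.13, -0.20 and -0.04. By the GC share of its longest transcript, Sox10 lay at percentile 98.4 of all genes (61.8% GC) and Apoe at percentile 95 (59.5%), while Gja1 lay at percentile 13.3 (42.2%) and Slc1a3 at 29.4 (45.7%). Fabp7, at percentile 14.9 (42.6%), did not share the pattern of Gja1. Gfap (percentile 80.7) and Etnppl (percentile 21.8) did not follow their GC share either, and S100b moved with the slope from percentile 43.3. The correlation of Apoe and Sox10, taken over deviations from the group means, was 0.97 before and 0.68 after the GC and length offsets; that of Apoe and S100b was 0.85 before and 0.19 after. Fabp7 and Gja1 had 0.70 before and 0.75 after.

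**Figure D4:**
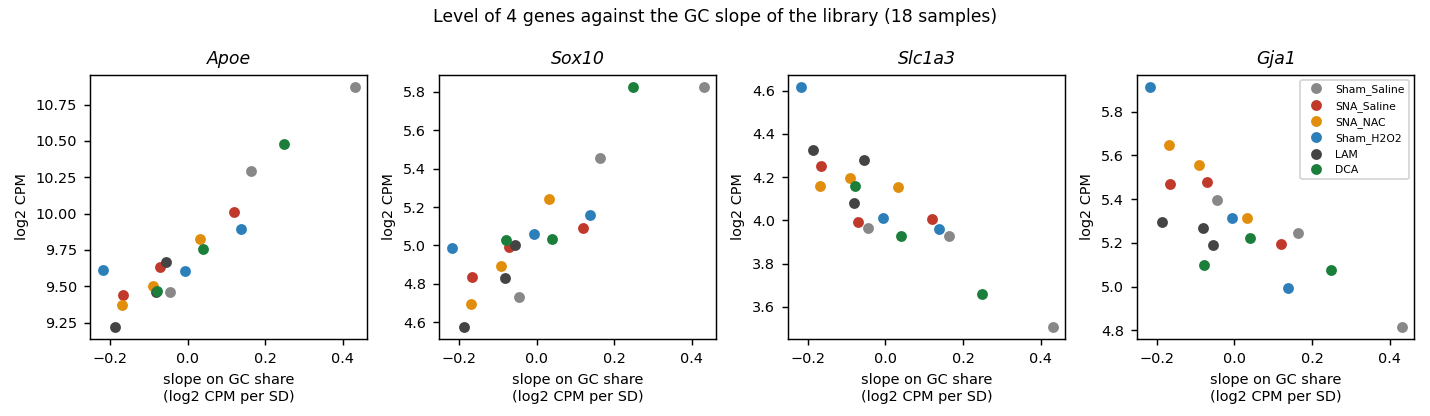
Level of Apoe, Sox10, Slc1a3 and Gja1 (vertical axes, log2 CPM) against the GC slope of the library (horizontal axes, log2 CPM per SD of GC share); points are the 18 samples, coloured by group. Apoe and Sox10 were high and Slc1a3 and Gja1 low in the Sham_Saline sample at 0.43.

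Since the 2 injuries have separate controls, Sham_Saline was also set against LAM. None of the 9 genes passed in edgeR, beside 0.0699% of all genes; 4765 genes had an unadjusted p under 0.05, and DESeq2 called 1 of the 9. Apoe was higher in Sham_Saline by 0.86 log2 units with an SE of 0.29 (edgeR adjusted p = 0.104; DESeq2 adjusted p = 0.049), and Sox10 by 0.59 with an SE of 0.25 (edgeR adjusted p = 0.13). With the offsets these were 0.24 and -0.07. Without Sham_Saline replicate 1 both passed (1.15 and 0.84; edgeR adjusted p = 0.0236 each), and without replicate 2 they were 0.47 and 0.32 (edgeR adjusted p = 0.474 and 0.552). Gfap and Slc1a3 were lower in every Sham_Saline sample than in any LAM sample, while 30.6% of all genes did not overlap, 14.2% as lower. For the difference between the 2 injury responses 0 of the 8 genes other than Etnppl passed in edgeR, beside 1.61% of all genes, and 4933 genes had an unadjusted p under 0.05. Apoe was at -1.11 with an SE of 0.41 (edgeR adjusted p = 0.101) and Sox10 at -0.96 with an SE of 0.35 (edgeR adjusted p = 0.0974). Both passed without Sham_Saline replicate 1 (edgeR adjusted p = 0.0201 and 0.0198). Without Sham_Saline replicate 2 they were -0.73 and -0.69 (edgeR adjusted p = 0.293 and 0.275), and with the GC and length offsets they were -0.23 and 0.00.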

How the data were processed

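RNA of 18 samples, 3 in each of 6 groups, was sequenced as stranded mRNA libraries, 6 on each of 3 lanes, per the labels. The deposited values are raw read counts per gene, and FPKM from the authors beside them. TopHat2 2.0.12, HTSeq 0.6.0 and the mm10 build appear in the submitters' processing notes; how strand and shared bases were counted is not given in the sources used here. Per-sample totals were 6472476 to 42435331 counts. Same-group samples are different pools of 2 mice.

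Differences in counts were tested by the quasi-likelihood test of edgeR 4.0.16 under R 4.3.3 (TMM factors, filterByExpr, all 18 samples in 1 fit, no covariates), with Benjamini-Hochberg adjustment over 15730 genes and a threshold of 0.05. Each SE was derived from the log2 fold change and its F statistic. CPM use TMM library sizes, and log2 CPM a prior count of 2. The common biological coefficient of variation was 17.4%. An exact permutation test of 3 against 3 samples cannot go below 0.10, so none was run. Scripts were tested on simulated data.

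The members and lists were chosen with earlier results of these data known. All 9 genes are named throughout; from each other list up to 4 passing genes with the smallest p are named, or up to 2 where none passes, and the 3 genes (5 for Etnppl) with the highest correlation, of which 1 is not reported here. No p is given for the 9 genes in DCA against LAM, nor for Etnppl in the difference of the 2 injuries.

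Alternatives were DESeq2 1.42.0, upper-quartile factors, no filter, at least 10 counts in every sample, only the groups compared, a replicate block, offsets for GC share and transcript length (splines, 15648 genes with a value), limma 3.58.1 on log2(FPKM + 1) and log2(FPKM + 0.1), an adjusted p under 0.10, each sample left out, and, added after seeing the data, the offsets with the block. Replicate numbers pair samples by lane per the labels, not by animal. Same-numbered samples' deviations from their group means correlated from -0.65 to 0.56, and every pair was over 0.1 only in Sham_Saline against LAM (0.24, 0.42 and 0.27).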

Additional observations from a re-analysis of the deposited data

Results flagged for a closer look

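In 4 genes of the further lists the response to nerve injury (SNA_Saline against Sham_Saline) was not the same as that to injury of the dorsal columns (DCA against LAM) by the edgeR test of the difference itself. They were 1 of 13 glutamate genes, 1 of 10 genes of the ethanolamine list, and 1 higher and 1 lower of 18 glucocorticoid genes. That of the ethanolamine list was Phykpl, not itself an enzyme of ethanolamine metabolism. None passed among the 20 glial, 17 lipoprotein and 11 gap junction genes or in any marker list. Over all genes 1.61% passed this test, and such small counts say nothing about the lists as groups. Asns, asparagine synthetase, differed by 0.54 log2 units (SE 0.12, adjusted p = 0.0386), with 205 ± 9.14 and 268 ± 11.8 CPM in Sham_Saline and SNA_Saline and 247 ± 3.06 and 222 ± 21.4 CPM in LAM and DCA (SD, n = 3 each). Phykpl, of hydroxylysine breakdown, differed by 0.60 (SE 0.14, adjusted p = 0.0438). Dusp1, a MAP kinase phosphatase, differed by 0.71 (SE 0.16, adjusted p = 0.0386), with 21.6 ± 3.27 and 35.5 ± 3.49 CPM after the nerve operations and 23.1 ± 0.342 and 23.2 ± 0.986 CPM after the spinal ones. Plin4, of lipid droplets, differed by -2.69 (value -2.685, SE 0.61, adjusted p = 0.0386), with 3.96 ± 2.46 and 1.75 ± 1.07 CPM in Sham_Saline and SNA_Saline and 2.74 ± 0.228 and 7.96 ± 2.80 CPM in LAM and DCA. With the replicate block 0 of these 4 passed (adjusted p = 0.069, 0.0793, 0.069 and 0.0585). Over 22 or 23 alternatives Asns passed in 13, Phykpl in 9, Dusp1 in 12 and Plin4 in 11. Groups of 3 samples are too small to look for single outlying samples.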

How the results depend on the processing

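Of the log2 fold changes recomputed under each alternative, 1229 kept their direction and their side of the threshold. For values without a test, which have no threshold, these kept direction and moved by no more than the SE of the main log2 fold change. Another 121 lost the call, 23 gained one and 74 took the opposite sign. A further 10 values without a test moved by more than that SE. The 1229 include the fit with no filter, which repeats the main fit, and values at the threshold of 0.10, where no call can be lost. The causes were not tested unless the alternative's construction shows them. The number of the 9 genes passing in DCA against LAM was not computed, and Etnppl was not tested in the difference of the 2 injuries, since its DCA value was known when the genes were listed. With DESeq2, the genes passing numbered 863 in SNA_Saline against Sham_Saline, 1223 in SNA_NAC against Sham_Saline, 4 in Sham_H2O2 against Sham_Saline, 2 in DCA against LAM, 1141 in Sham_Saline against LAM and 1723 in the difference of the 2 injuries. Of the 9, the number passing was 2 in SNA_Saline against Sham_Saline, 1 in Sham_Saline against LAM and 1 in the difference of the 2 injuries (Etnppl left out). The sign changed in SNA_Saline against Sham_Saline for Etnppl (-0.012). With offsets for GC share and length, the genes passing numbered 1168 in SNA_Saline against Sham_Saline, 1196 in SNA_NAC against Sham_Saline, 25 in Sham_Saline against LAM and 818 in the difference of the 2 injuries. Among the 9 genes it was 1 in the difference of the 2 injuries (Etnppl left out). A change of sign was seen in SNA_Saline against Sham_Saline for Etnppl (-0.21), Sox10 (0.13) and Gja1 (-0.029), SNA_NAC against Sham_Saline for Fabp7 (-0.14) and Sox10 (0.16), SNA_NAC against SNA_Saline for Apoe (0.0076) and Sox10 (0.030), Sham_H2O2 against Sham_Saline for Sox10 (0.18), DCA against LAM for Gfap (-0.011), Fabp7 (0.16) and Gja1 (0.092), Sham_Saline against LAM for Glul (0.019), Sox10 (-0.072) and Gja1 (0.24) and the difference of the 2 injuries for Gja1 (-0.12). With these offsets and the replicate block, an alternative chosen after seeing the data, the genes passing numbered 1000 in SNA_Saline against Sham_Saline, 1089 in SNA_NAC against Sham_Saline, 17 in Sham_Saline against LAM and 551 in the difference of the 2 injuries. The 9 genes gave 3 in SNA_Saline against Sham_Saline, 1 in Sham_Saline against LAM and 2 in the difference of the 2 injuries (Etnppl left out). Signs were opposite in SNA_Saline against Sham_Saline for Etnppl (-0.23), Sox10 (0.13) and Gja1 (-0.029), SNA_NAC against Sham_Saline for Fabp7 (-0.12) and Sox10 (0.16), SNA_NAC against SNA_Saline for Apoe (0.010) and Sox10 (0.029), Sham_H2O2 against Sham_Saline for Sox10 (0.18), DCA against LAM for Gfap (-0.027), Fabp7 (0.15) and Gja1 (0.087), Sham_Saline against LAM for Glul (0.018), Sox10 (-0.072) and Gja1 (0.24) and the difference of the 2 injuries for Sox10 (0.0051) and Gja1 (-0.12). At an adjusted p under 0.10, the genes passing numbered 822 in SNA_Saline against Sham_Saline, 1288 in SNA_NAC against Sham_Saline and 2398 in the difference of the 2 injuries. Of the 9, the number passing was 2 in SNA_Saline against Sham_Saline and 2 in the difference of the 2 injuries (Etnppl left out). With at least 10 counts in every sample, a filter that drops Gfap and Etnppl, the genes passing numbered 4 in Sham_Saline against LAM. Among the 9 genes it was 0 in SNA_Saline against Sham_Saline and 0 in SNA_NAC against Sham_Saline. With limma on log2(FPKM + 0.1), signs were opposite in SNA_Saline against Sham_Saline for Etnppl (-0.025), Sham_H2O2 against Sham_Saline for Gfap (-0.039) and DCA against LAM for Fabp7 (0.0018). With limma on log2(FPKM + 1), the genes passing numbered 5 in Sham_Saline against LAM. The sign changed in SNA_Saline against Sham_Saline for Etnppl (-0.0090), Sham_H2O2 against Sham_Saline for Gfap (-0.0029) and DCA against LAM for Fabp7 (0.0018). With only the groups compared in the fit, the genes passing numbered 65 in SNA_Saline against Sham_Saline, 68 in SNA_NAC against Sham_Saline, 1 in Sham_Saline against LAM and 151 in the difference of the 2 injuries. Among the 9 genes it was 0 in SNA_Saline against Sham_Saline and 0 in SNA_NAC against Sham_Saline. A change of sign was seen in SNA_Saline against Sham_Saline for Etnppl (-0.0041). With upper-quartile factors, the genes passing numbered 7 in Sham_Saline against LAM. The sign changed in Sham_Saline against LAM for S100b (-0.024).

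The replicate number is the sequencing lane. With the replicate block, the genes passing numbered 6 in Sham_Saline against LAM and 118 in the difference of the 2 injuries. The 9 genes gave 2 in SNA_Saline against Sham_Saline. Signs were opposite in SNA_Saline against Sham_Saline for Etnppl (-0.018) and SNA_NAC against SNA_Saline for Sox10 (0.0017). In SNA_Saline against Sham_Saline Glul gained a call with it (0.34), and Sox9 (0.95) and Phykpl (0.42) lost theirs; in SNA_NAC against Sham_Saline Dusp1 (0.45) and Mrc1 (0.73) did, and in the difference of the 2 injuries Asns (0.54), Phykpl (0.60), Plin4 (-2.67) and Dusp1 (0.72) did. It changed no other call on the genes named.

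When each sample was left out in turn, the lowest and highest values were as follows, with the log2 fold change for a gene. For SNA_Saline against Sham_Saline they were genes passing from 174 to 2548, Etnppl from -0.18 to 0.22, Fabp7 from -0.27 to 0.11, those of the 9 passing from 1 to 3 and S100b from -0.14 to 0.020. For SNA_NAC against Sham_Saline they were Fabp7 from -0.12 to 0.25, genes passing from 215 to 5861 and those of the 9 passing from 0 to 3. For SNA_NAC against SNA_Saline they were Sox10 from -0.18 to 0.10, Gfap from -0.31 to 0.13 and Apoe from -0.28 to 0.039. For Sham_H2O2 against Sham_Saline they were S100b from -0.14 to 0.019, Gja1 from -0.013 to 0.47 and Gfap from -0.23 to 0.32. For DCA against LAM they were Glul from -0.030 to 0.088 and Fabp7 from -0.15 to 0.11. For Sham_Saline against LAM they were S100b from -0.046 to 0.11, genes passing from 4 to 5009, those of the 9 passing from 0 to 2 and Gja1 from -0.21 to 0.075. For the difference of the 2 injuries they were genes passing from 55 to 4600, those of the other 8 passing from 0 to 3 and Fabp7 from -0.25 to 0.12. Etnppl and Gfap rest on 6 to 268 and 6 to 217 counts a sample, and what difference that depth can show was not tested.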
